A study of Mus musculus with 18 samples.

Results

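The late response of mouse bone marrow-derived macrophages to interleukin-4 (IL-4) is described here from 6 of the 18 arrays of the series. The 6 arrays were chosen by their titles: 3 of Irf4+/- cells that had IL-4 for 18 h and 3 of Irf4+/- cells without IL-4 (mock), also cultured for 18 h. The letters A, B and C mark 3 independent experiments on littermates, and each letter has 1 array of each group. IL-4 was given at 10 ng/ml to cells that had been grown from marrow in human rCSF1 (recombinant colony-stimulating factor 1). All 6 samples carry 1 disrupted Irf4 allele on the C57BL6/J strain, so there is no wild-type group; the mice were 8 to 12 weeks old, and each sample comes from cells of several animals that were pooled. The other 12 arrays, 3 of Irf4+/- cells after 4 h of IL-4 and 9 of Irf4-/- cells, entered the fit to estimate the spread and served 2 comparisons at the end.

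IL-4 is a cytokine of type 2 immunity. It binds the IL-4 receptor, which activates Janus kinases and the transcription factor STAT6, and STAT6 dimers bind palindromic sites in the promoters and enhancers of target genes. Macrophages kept in IL-4 take on what is often called the alternatively activated state, known for arginase, chitinase-like and resistin-like secreted proteins, mannose-binding lectins and a capacity to fuse, with low output of inflammatory cytokines. Interferon regulatory factor 4, the product of Irf4, is a transcription factor that is itself induced by IL-4.

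RNA was hybridised to single-colour Agilent arrays. A level below is the log2 of a spot's processed intensity minus that of the array's 75th percentile, so that 0 is the brightness below which 75 percent of the array's spots lie. Between 66.4 and 74.4 percent of spots were well above background on the 6 arrays, and the 75th percentile lay between 722 and 1231 intensity units. A gene was taken from its brightest probe, and 14941 of 20255 named genes had a probe that all 3 arrays of some group measured well above background. All 14 macrophage identity genes on the array were well above background on all 6 arrays, Csf1r, Adgre1, Cd68 and Itgam among them. The summed linear level of the 14 was 923 to 1257 in IL-4 18 h cells and 1208 to 1429 in mock cells. For lists that mark other cells, the summed levels of IL-4 18 h and mock cells overlapped in monocyte (50.2 to 98.2 and 46.2 to 111), B-lineage (69.6 to 109 and 75.5 to 115), plasmacytoid dendritic cell (74.3 to 134 and 121 to 169), neutrophil (20.9 to 31.8 and 24.8 to 26.2) and fibroblast and endothelial markers (23.1 to 46.9 and 25.03 to 52.5). They overlapped too in T and NK cell markers (0.345 to 0.551 and 0.321 to 0.509) and in basophil, mast cell and eosinophil markers (0.528 to 0.593 and 0.525 to 0.737). The sum was higher in IL-4 18 h cells for conventional dendritic cell markers (8.77 to 37.4, against 1.54 to 2.15 in mock cells), among which Batf3 was the member called higher, and lower for erythroid and platelet markers (22.8 to 35.4, against 36.8 to 64.1). Batf3 made up most of the first sum in IL-4 18 h cells. Pf4, named below among the secreted products, made up most of the second in both groups. In each of these 9 lists between 7 and 8 members, or 10 in the 2 longer lists, were well above background on all 6 arrays. Sums of different lists rest on different probes and cannot be set against each other. In bulk RNA, fewer cells of a type and less RNA per cell cannot be told apart. The sex label gives 2 males and 1 female for every pool, but Xist, the RNA of the inactive X chromosome, had levels of -0.84, -8.32 and 1.77 in IL-4 18 h cells and -0.14, -6.92 and 1.93 in mock cells and was not well above background in experiment B of either group. The probe of Irf4 had levels of 1.76, 1.24 and 0.81 in IL-4 18 h cells and -1.15, -0.36 and -1.80 in mock cells, and gave 2.14, 1.17 and 1.25 and -0.97, -0.53 and -0.81 in Irf4-/- cells with and without IL-4 for 18 h, so it does not check the genotype. In experiment C the IL-4 18 h array lay on another slide than the mock array, while those of A and of B shared a slide.

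After 18 h, IL-4 cells differed from mock cells in a large share of the measured genes. The fit called 2367 of 14941 genes, 15.8%, at a Benjamini-Hochberg adjusted p under 0.05 (limma, with the experiment letter as a block): 1180 genes rose (7.9%) and 1187 fell (7.94%). Of these, 456 rose and 515 fell at least 2-fold, and 146 rose and 104 fell at least 4-fold. At the far end the rises were larger than the falls: 27 genes rose and 2 fell at least 32-fold. The change had the same sign in all 3 experiments for 2360 of the 2367 genes, which a fit with the letter as a block favours. Of all 14941 genes 4603 were higher and 3899 lower in all 3 experiments. The 3 values of each group did not overlap for 1460 of the 2367 called genes, against 2135 of all genes tested. Without the block, 642 genes were called (329 higher and 313 lower), and all 642 were among the 2367. With all arrays of experiment B left out, 588 genes rose and 705 fell, and 663 and 760 without A or 505 and 530 without C. The median change over all genes tested was 0.03 on the log2 scale. Median changes of the genes that rose were 0.86, 0.67 and 0.83 in experiments A, B and C, and those of the genes that fell were -1.07, -0.72 and -0.90, so both were smallest in experiment B. The plot of change against level shows that called genes lay over the whole range of brightness. Under another background correction, normexp, 265 genes rose and 540 fell, a higher share of 32.9 percent against 49.9 percent, and the median of all genes was 0.13. Dim genes that fell, Cxcl9, Cxcl11, Il1b and Ifnb1 among them, had positive changes under normexp, none of these 4 called. A variant, named trimmed normexp below, left out spots far dimmer than their background, 0 to 6 per array. Under the variant 1035 genes rose and 1053 fell, and the median of all genes was 0.06. Il1b changed by -0.67 and Cxcl11 by -0.77 under it.

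**Figure D1:**
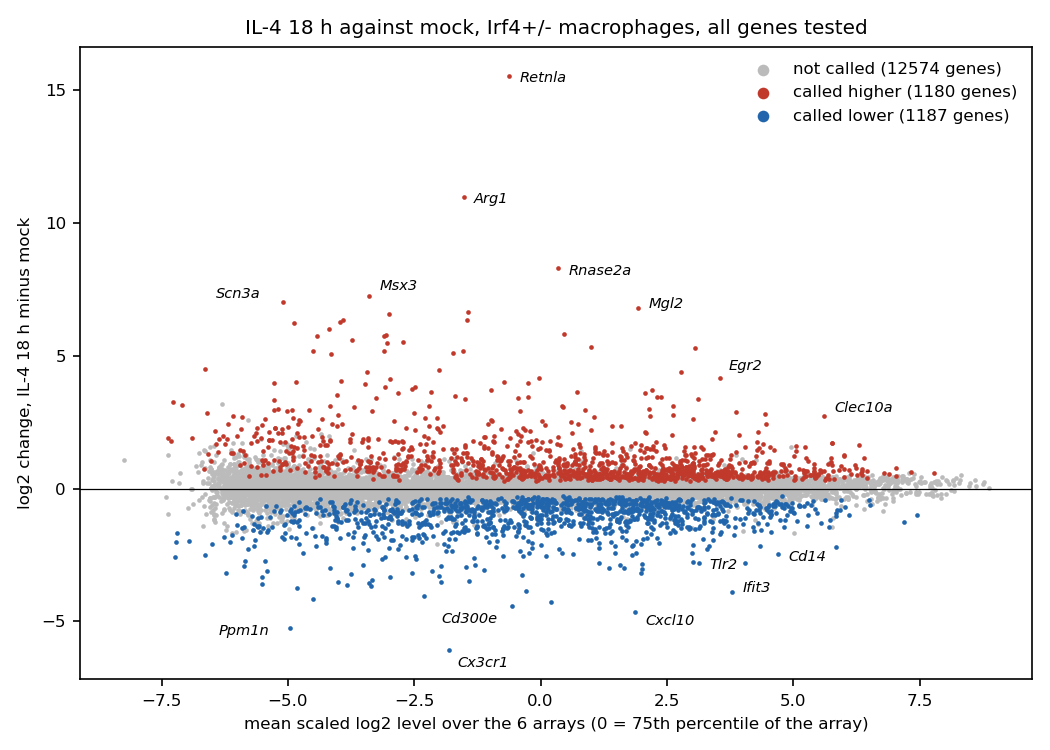
Log2 change (IL-4 18 h minus mock, vertical axis) of each of the 14941 genes tested against its mean scaled log2 level over the 6 arrays (horizontal axis); colours mark the 1180 genes called higher, the 1187 called lower and the 12574 not called. Retnla stands at 15.54 and Arg1 at 10.99, while Cx3cr1, at -6.09, marks the lower end.

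Retnla and Arg1, both well known from IL-4-treated macrophages, had the largest rises. Retnla, which encodes the resistin-like secreted protein RELM alpha, had levels of 8.02, 6.52 and 6.89 in IL-4 18 h cells, against -8.16, -8.17 and -8.85 in mock cells. It was not well above background on any mock array and was among the brightest genes after IL-4, at least 15619-fold higher (fitted log2 change 15.54 ± 0.38, SE, adjusted p = 8.34e-11). A second probe of the gene gave a change of 15.29. For the probe used, the change was 10.54 with normexp and 11.02 with trimmed normexp, so the bound holds for the background correction of the main fit alone. Arg1, arginase 1, the enzyme that splits arginine into ornithine and urea, had levels of 4.85, 2.22 and 4.85 in IL-4 18 h cells, against -7.97, -6.69 and -6.38 in mock cells. The groups were far apart, and only 1 of the 3 mock arrays was well above background for it (log2 change 10.99 ± 0.64, adjusted p = 2.28e-07). Mgl2, a galactose-type C-type lectin of macrophages and dermal dendritic cells, had 5.60, 4.83 and 5.54 in IL-4 18 h cells, against -1.68, -1.81 and -0.89 in mock cells. Its 3 values lay close together in each group, and its change of 6.78 ± 0.23 had the second smallest p of all genes (adjusted p = 3.13e-09). Cish, a STAT-induced SOCS-family feedback inhibitor, had 5.02, 1.83 and 3.28 in IL-4 18 h cells, against -2.87, -1.27 and -3.20 in mock cells, with the lowest 18 h value and the highest mock value both in experiment B (5.83 ± 0.81, adjusted p = 0.000264). Pdcd1lg2, the PD-1 ligand PD-L2, had 0.32, -0.85 and 0.01 in IL-4 18 h cells, against -6.14, -4.69 and -7.02 in mock cells, without overlap (5.78 ± 0.52, adjusted p = 8.78e-06).

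Eosinophil-associated ribonucleases made up a further group of the largest rises. Rnase2a had 7.45, 3.20 and 2.81 in IL-4 18 h cells, against -2.89, -3.52 and -4.99 in mock cells, so that the value of experiment A was far above the other 2 (8.29 ± 0.76, adjusted p = 9.88e-06). Ear10 (6.34 ± 0.61), Ear3 (6.02 ± 0.62), Ear1 (5.76 ± 0.53) and Ear6 (5.61 ± 0.65) had the same layout over the arrays, with experiment A highest. The probes of these near-identical paralogs cannot be told apart with certainty, and the 5 values may not be independent. The basophil, mast cell and eosinophil marker list, which does not hold them, had 0 of 8 tested members called. The other 8 of its 16 members on the array were too dim to be tested.

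Membrane proteins not usually named among macrophage markers were also among the largest rises. Aqp3, an aquaglyceroporin, had 3.64, -0.02 and 2.03 in IL-4 18 h cells, against -4.85, -4.47 and -4.97 in mock cells, with the 18 h values spread widely and the mock values tight (6.65 ± 0.63, adjusted p = 1.25e-05). The sodium channel subunit genes Scn3a and Scn1a were well above background on all 3 arrays of IL-4 18 h cells and on no mock array, at least 36.6-fold and 32.3-fold higher. Their levels after IL-4 were modest, -1.41, -1.94 and -1.43 for Scn3a. A second Scn3a probe gave a log2 change of 4.87, against 7.025 for the probe used. With normexp and trimmed normexp Scn3a changed by 3.01 and 2.49 and Scn1a by 3.03 and 2.62, less than the bounds of the main fit. Cldn11, a tight-junction claudin best known from myelin and testis, rose by 6.58 ± 0.43. Tmem26, a transmembrane protein gene, rose by 6.34 ± 0.38, and Rbp4, the plasma carrier of retinol, by 6.27 ± 0.54. Msx3, a homeobox gene known from the dorsal neural tube, had 1.04, -1.11 and 0.78 in IL-4 18 h cells, against -5.22, -8.35 and -7.48 in mock cells, with 1 of 3 mock arrays well above background (7.25 ± 0.50, adjusted p = 8.64e-07). Edn1, the vasoconstrictor endothelin 1, outside the 15, was well above background on no mock array and was at least 37.6-fold higher after IL-4, with 0.18, -4.26 and -0.58 on the 3 arrays, lowest in B. The 5 smallest p-values of the fit belonged to Retnla, Mgl2, Bhlhe40, Mcf2l and Flt1. The last 3 changed by 3.65 ± 0.14 (a basic helix-loop-helix repressor), 5.09 ± 0.22 (a guanine nucleotide exchange factor) and 5.28 ± 0.24 (vascular endothelial growth factor receptor 1). The median standard error of all genes was 0.17.

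Few genes crossed the background limit in all 3 experiments. A set of 10 genes that rose were well above background on all 3 IL-4 18 h arrays and on no mock array, namely Retnla, Edn1, Scn3a, Scn1a, Ppp1r3c, Hid1, Slc27a6, Dnah12, Cfap161 and Enox1. Below the first 4, the bounds were small: at least 5.28-fold for Ppp1r3c, a glycogen-targeting subunit of protein phosphatase 1, and at least 1.78-fold for Enox1. A set of 10 genes that fell was well above background on all 3 mock arrays and on no IL-4 18 h array: Cxcl11, Cxcl9, Lipg, Col15a1, Txk, Krt80, Ifnb1, Col19a1, Siglece and Gpr82. Their bounds ran from at least 7.69-fold lower for Cxcl11 to at least 1.61-fold lower for Gpr82. Ifnb1, interferon beta, had -6.36, -7.08 and -7.33 in IL-4 18 h cells, against -4.67, -4.44 and -4.87 in mock cells, dim in both groups without overlap, and was at least 3.96-fold lower. Of these 20 genes, those outside the largest changes were picked out after their values were seen, as were Irf7 and Csf1r below. The adjusted p without the block was above 0.05 for Col19a1 (0.0589), Cfap161 (0.163), Enox1 (0.238), Slc27a6 (0.304) and Gpr82 (0.602).

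The promoters of some of these genes hold a palindrome of TTC and GAA with 4 bases between, the spacing that STAT6 is known to prefer, and 4 are shown because they stand among the 15 largest rises. Each runs from 250 bases before to 50 bases after the RefSeq transcription start (GRCm38.p6, first start listed for the gene), 5′ to 3′ on the gene's strand, with the matches in capitals. Retnla and Tmem26 carry 1 and 2 matches, and Rbp4 and Pdcd1lg2 1 each.
Retnla, chr16:48842359-48842658, plus strand: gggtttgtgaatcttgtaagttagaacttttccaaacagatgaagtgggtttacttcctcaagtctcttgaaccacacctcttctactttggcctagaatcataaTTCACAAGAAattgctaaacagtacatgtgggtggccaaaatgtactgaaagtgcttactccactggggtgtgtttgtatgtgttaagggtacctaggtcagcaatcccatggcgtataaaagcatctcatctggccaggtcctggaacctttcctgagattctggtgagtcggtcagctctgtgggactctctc
Tmem26, chr10:68723496-68723795, plus strand: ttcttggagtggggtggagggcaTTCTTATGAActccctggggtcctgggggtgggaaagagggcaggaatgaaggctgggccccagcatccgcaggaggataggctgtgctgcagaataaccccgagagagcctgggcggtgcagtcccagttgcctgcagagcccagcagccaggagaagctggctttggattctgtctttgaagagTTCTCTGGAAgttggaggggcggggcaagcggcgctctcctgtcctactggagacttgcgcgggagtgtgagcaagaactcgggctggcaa
Rbp4, chr19:38125272-38125571, minus strand: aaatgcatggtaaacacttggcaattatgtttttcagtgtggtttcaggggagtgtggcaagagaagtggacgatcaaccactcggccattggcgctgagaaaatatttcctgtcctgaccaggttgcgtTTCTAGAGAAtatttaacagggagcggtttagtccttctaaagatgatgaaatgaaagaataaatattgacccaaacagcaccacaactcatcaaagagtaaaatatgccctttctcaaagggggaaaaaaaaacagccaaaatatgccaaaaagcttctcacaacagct
Pdcd1lg2, chr19:29410669-29410968, plus strand: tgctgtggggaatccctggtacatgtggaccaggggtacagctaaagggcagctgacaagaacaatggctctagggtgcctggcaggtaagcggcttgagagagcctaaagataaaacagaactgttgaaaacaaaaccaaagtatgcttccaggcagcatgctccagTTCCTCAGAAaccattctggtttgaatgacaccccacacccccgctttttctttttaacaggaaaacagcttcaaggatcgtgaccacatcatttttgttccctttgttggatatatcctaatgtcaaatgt

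The first base of the match stood 145 bases before the start in Retnla and 82 bases before it in Pdcd1lg2. Of the other 11 largest rises, 8 had a promoter in the table and no match in this window, and 3 (Arg1, Scn3a and Ear3) had no entry. Over all genes the palindrome did not mark the rises: 56 of 944 promoters of genes that rose held it (5.93%), against 43 of 921 of genes that fell (4.67%) and 654 of 11689 of all genes tested with a promoter (5.59%). The shorter spacing, TTC and GAA with 3 bases between, preferred by other STATs, was found in 6.25% of promoters of genes that rose, 7.49% of those that fell and 7.04% of all. Both are palindromes, so each match lies on both strands.

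Receptor and chemokine genes stood among the 15 largest falls. Cx3cr1, the receptor of fractalkine, had -3.92, -4.97 and -5.66 in IL-4 18 h cells, against 2.48, 0.63 and 0.61 in mock cells. Every value after IL-4 lay more than 4 units below every mock value (-6.09 ± 0.30, adjusted p = 8.21e-08). A second probe of Cx3cr1 gave a smaller change, -2.71. Cxcl10, an interferon-induced ligand of CXCR3, had -1.37, 0.49 and -0.50 in IL-4 18 h cells, against 4.64, 4.33 and 3.62 in mock cells; it was one of the brighter genes of mock cells (-4.66 ± 0.51, adjusted p = 3.82e-05). Cd300e, an activating myeloid receptor, had -2.60, -2.94 and -2.79 in IL-4 18 h cells, against 2.27, 1.08 and 1.57 in mock cells, and Pilrb1, an activating paired immunoglobulin-like receptor, had -2.35, -1.89 and -1.49 in IL-4 18 h cells, against 2.24, 2.31 and 2.48 in mock cells. Both groups were tight and far apart in each (-4.41 ± 0.24 and -4.25 ± 0.24). Gpr84, a receptor for medium-chain fatty acids, fell by 4.03 and Fpr2, a formyl peptide receptor, by 3.63. The neutrophil chemokine gene Cxcl1 had -8.59, -6.47 and -4.98 in IL-4 18 h cells, against -3.32, -3.99 and -1.52 in mock cells, with experiment C highest in both groups and 1 of 3 IL-4 18 h arrays well above background (-3.74 ± 0.69, adjusted p = 0.0023). Ppm1n (-5.26 ± 0.34), Dscam (-4.17 ± 0.22), Bank1 (-3.67 ± 0.34), Itga8 (-3.55 ± 0.43) and Tal2 (-3.53 ± 0.31), the last a bHLH factor first known from leukaemia, were well above background on all 3 mock arrays. Of the IL-4 18 h arrays, Ppm1n was so on 1 and Dscam and Tal2 on 2. With normexp the changes of Ppm1n, Dscam, Bank1, Itga8 and Tal2 were -0.06, 0.01, -0.50, -0.42 and 0.07. With trimmed normexp they were, in the same order, -1.86, -1.71, -1.98, -2.00 and -1.57. The 2 other probes of Itga8 gave -2.79 and -1.03. Pilra (-3.87 ± 0.27), Ifit3 (-3.91 ± 0.68) and Cxcl11 (at least 7.69-fold lower, adjusted p = 1.44e-06) completed the 15. In the fit without the block, the adjusted p exceeded 0.05 for Ifit3 (0.054).

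**Figure D2:**
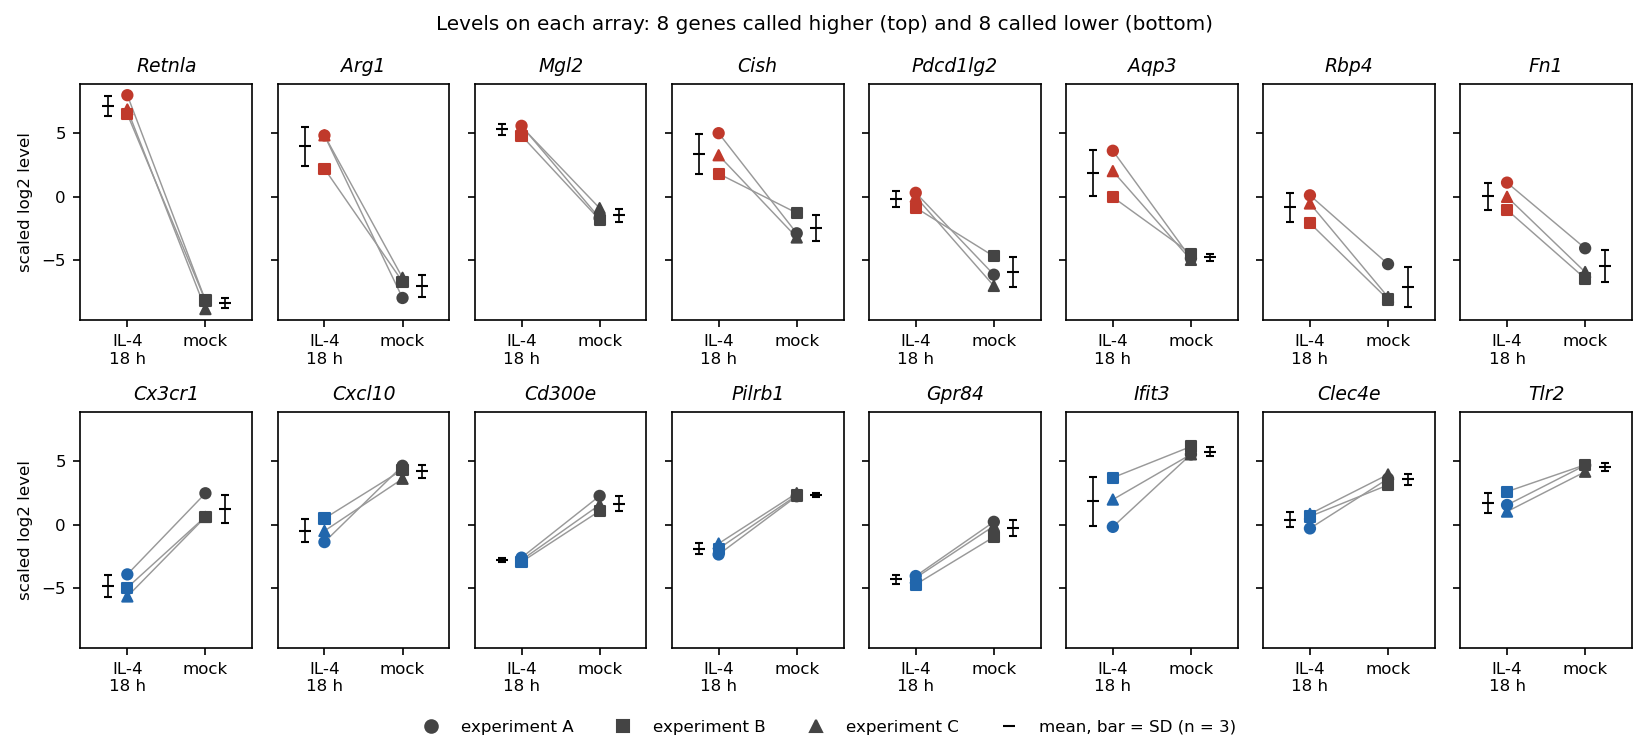
Scaled log2 level (vertical axis) of 8 genes called higher (top) and 8 called lower (bottom) on each array of the IL-4 18 h group (left in each panel) and the mock group (right); grey lines join the arrays of 1 experiment, and bars give the mean and SD (n = 3). In all 16 panels the 2 groups do not overlap.

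Genes of the interferon response fell together. Of the 55 tested type I interferon-stimulated genes 0 rose and 43 fell, against 7.94% of all genes, with a median change of -1.50. All 55 changes were negative, from -0.24 to -3.91, and 36 of the 55 were also lower than after 4 h of IL-4, against 6.51% of all genes; without the block 98 of all genes were lower than at 4 h, against 973 with it. Ifit3, an RNA-binding antiviral effector, had -0.18, 3.71 and 1.98 in IL-4 18 h cells, against 5.54, 6.16 and 5.54 in mock cells; the mock values were alike and the IL-4 18 h values were spread from A, lowest, to B, highest (-3.91 ± 0.68, adjusted p = 0.00139). Ifit1 had -2.24, 1.48 and 0.00 in IL-4 18 h cells, against 2.14, 3.17 and 2.36 in mock cells, again with the lowest value in A and the highest in B (-2.81 ± 0.54, adjusted p = 0.00301). Isg20, an exonuclease, fell with a change of -2.88 ± 0.47 and Ifit2 with -2.82 ± 0.49. The median change of the list was -2.45, -0.84 and -1.13 in experiments A, B and C so the fall was seen in each experiment and was largest in A. Without the block 5 of the 55 were called lower. Irf7 (-1.50 ± 0.50) was among the 12 not called. With all arrays of A left out 38 of the 55 were called lower, without B 31 and without C 9. Calls that were lost without the block, with the adjusted p of that fit, were those of Ifit3 (0.054), Ifit1 (0.115) and Ifit2 (0.135).

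A pair of symbol families overlaps this list. Of the 11 tested guanylate-binding proteins and interferon-inducible GTPases, cell-autonomous defence proteins, 9 fell (1 without the block) and 0 rose, with a median of -1.48, Iigp1 (-2.05 ± 0.53), Gbp4 (-1.85 ± 0.53) and Gbp5 (-1.77 ± 0.32) among them. Of 48 tested TRIM proteins, ubiquitin ligases many of which are interferon-induced, 13 fell and 1, Trim36, rose (2 and 0 without the block), against 15.8% of all genes called in either direction. Trim30b (-3.52 ± 0.40), Trim30a (-1.53 ± 0.30), Trim30d (-1.39 ± 0.25) and Trim34a (-1.22 ± 0.23) fell the most. The Trim30 and Gbp genes are close paralogs whose probes may share signal. Trim36 changed by 0.95 ± 0.18. Without the experiment block, the adjusted p was above 0.05 for Trim30d (0.0677), Trim30a (0.0863), Trim36 (0.153), Trim34a (0.263), Iigp1 (0.45) and Gbp4 (0.554).

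The promoters of 3 of the genes that fell are shown because they hold GAAA, any 2 bases and GAAA again, the core of the interferon-stimulated response element, searched on both strands and marked in capitals as it reads on the gene's strand (TTTC, any 2 bases and TTTC where the match is on the opposite strand). They are the 3 with the largest falls among the called interferon-stimulated genes and inflammatory chemokines that have a match.
Cxcl10, chr5:92348840-92349139, minus strand: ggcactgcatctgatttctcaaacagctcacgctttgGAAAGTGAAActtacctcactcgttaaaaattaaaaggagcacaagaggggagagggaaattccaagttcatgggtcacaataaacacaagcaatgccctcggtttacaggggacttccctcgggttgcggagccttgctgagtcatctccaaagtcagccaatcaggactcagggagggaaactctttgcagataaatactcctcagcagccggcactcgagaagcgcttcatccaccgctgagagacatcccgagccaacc
Ifit3, chr19:34583279-34583578, plus strand: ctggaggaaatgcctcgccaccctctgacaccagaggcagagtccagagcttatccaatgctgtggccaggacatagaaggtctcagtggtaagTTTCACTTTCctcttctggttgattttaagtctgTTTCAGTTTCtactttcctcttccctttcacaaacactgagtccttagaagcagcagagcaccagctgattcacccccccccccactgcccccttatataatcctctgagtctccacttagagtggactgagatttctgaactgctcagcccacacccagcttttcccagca
Ifit1, chr19:34640639-34640938, plus strand: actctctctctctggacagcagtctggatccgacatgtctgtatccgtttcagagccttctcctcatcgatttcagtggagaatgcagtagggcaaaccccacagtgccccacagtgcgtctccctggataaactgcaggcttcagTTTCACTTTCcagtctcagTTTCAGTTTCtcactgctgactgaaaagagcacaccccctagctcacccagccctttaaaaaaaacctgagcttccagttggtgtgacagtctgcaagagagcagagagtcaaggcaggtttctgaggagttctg

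No other motif searched overlapped these matches. This motif was found in 23 of the 39 promoters of the interferon-stimulated list that the table holds (59.0%), in 66 of 921 promoters of genes that fell (7.17%), in 20 of 944 of genes that rose (2.12%) and in 362 of 11689 of all genes tested with a promoter (3.1%). A match describes the letters of the window and not a bound site.

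Inflammatory cytokine and chemokine genes fell as well, with exceptions among CC chemokines. Of 23 tested, 14 fell and 3 rose (9 and 0 without the block), against 15.8% of all genes called. The median change was -1.40. It was 0.17 with normexp and -0.77 with trimmed normexp. The CXCR3 ligands Cxcl10, Cxcl11 and Cxcl9 were all lower, Cxcl9 at least 7.04-fold (fitted adjusted p = 6.16e-05). Tnf, tumour necrosis factor, had -2.60, -1.60 and -0.56 in IL-4 18 h cells, against 0.78, -0.23 and 1.75 in mock cells, lower in each experiment with the groups apart (-2.35 ± 0.46, adjusted p = 0.00328). Il1b, interleukin-1 beta, was dim, with -5.53, -4.19 and -5.97 in IL-4 18 h cells, against -3.47, -2.47 and -4.37 in mock cells and with overlapping groups, lower in each experiment (-1.79 ± 0.55, adjusted p = 0.0418). Ccl7, a monocyte chemoattractant, had 3.23, 2.85 and 6.00 in IL-4 18 h cells, against -0.98, -0.62 and 3.33 in mock cells, far higher in experiment C in both groups and higher after IL-4 in each experiment (3.45 ± 0.60, adjusted p = 0.00152). Ccl6 (0.65 ± 0.20) and Ccl9 (0.58 ± 0.14), CC chemokines of mouse myeloid cells, rose by less. Nos2, the inducible nitric oxide synthase, and Ccl22 had no probe that passed the filter on dim probes. Ccl17, a ligand of CCR4, had -2.81, -4.77 and -5.18 in IL-4 18 h cells, against -4.17, -4.81 and -5.44 in mock cells, with overlap, and was not called (0.55 ± 0.27, adjusted p = 0.224). The adjusted p without the block was above 0.05 for Ccl7 (0.129), Il1b (0.168), Ccl6 (0.196) and Ccl9 (0.683).

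Sensors of microbial products and the NF-kB system were lower on balance. Of 37 tested pattern recognition receptors and adaptors, 16 fell and 2 rose (6 and 0 without the block). Among all genes tested, 15.8% were called in either direction and 7.94% were lower. Tlr2, which senses lipopeptides, had 1.55, 2.60 and 1.03 in IL-4 18 h cells, against 4.68, 4.72 and 4.17 in mock cells, without overlap (-2.80 ± 0.28, adjusted p = 2.2e-05), and Cd14, the lipopolysaccharide co-receptor, had 3.53, 3.81 and 3.02 in IL-4 18 h cells, against 6.12, 5.75 and 5.93 in mock cells (-2.48 ± 0.22, adjusted p = 7.59e-06). Tlr5 (-1.64 ± 0.24) and Nod2 (-1.61 ± 0.11) fell too. Tlr4, the lipopolysaccharide receptor, had 2.01, 2.34 and 2.14 in IL-4 18 h cells, against 1.89, 2.10 and 2.21 in mock cells and was not called (0.10 ± 0.14, adjusted p = 0.748). The 2 that rose were the kinase gene Ripk2 (1.08 ± 0.21) and the inflammasome adaptor gene Pycard (0.59 ± 0.12). Of 24 tested NF-kB subunits, inhibitors and kinases, 9 fell (6 without the block) and 0 rose; the atypical IkB protein gene Nfkbiz (-3.08 ± 0.41) led, before Traf1 (-1.30 ± 0.21), Relb (-1.18 ± 0.20) and Ikbke (-1.09 ± 0.12). In the list of antimicrobial oxidant and itaconate genes, Acod1, which makes itaconate, had -0.36, 0.75 and 0.10 in IL-4 18 h cells, against 3.17, 2.96 and 3.32 in mock cells (-2.99 ± 0.36), and Cybb, the catalytic subunit of the phagocyte oxidase, changed by -1.10 ± 0.29; 4 of 15 tested fell and 0 rose (2 and 0 without the block). In the fit without the block, the adjusted p exceeded 0.05 for Ikbke (0.177), Ripk2 (0.19), Cybb (0.563) and Pycard (0.692).

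**Figure D3:**
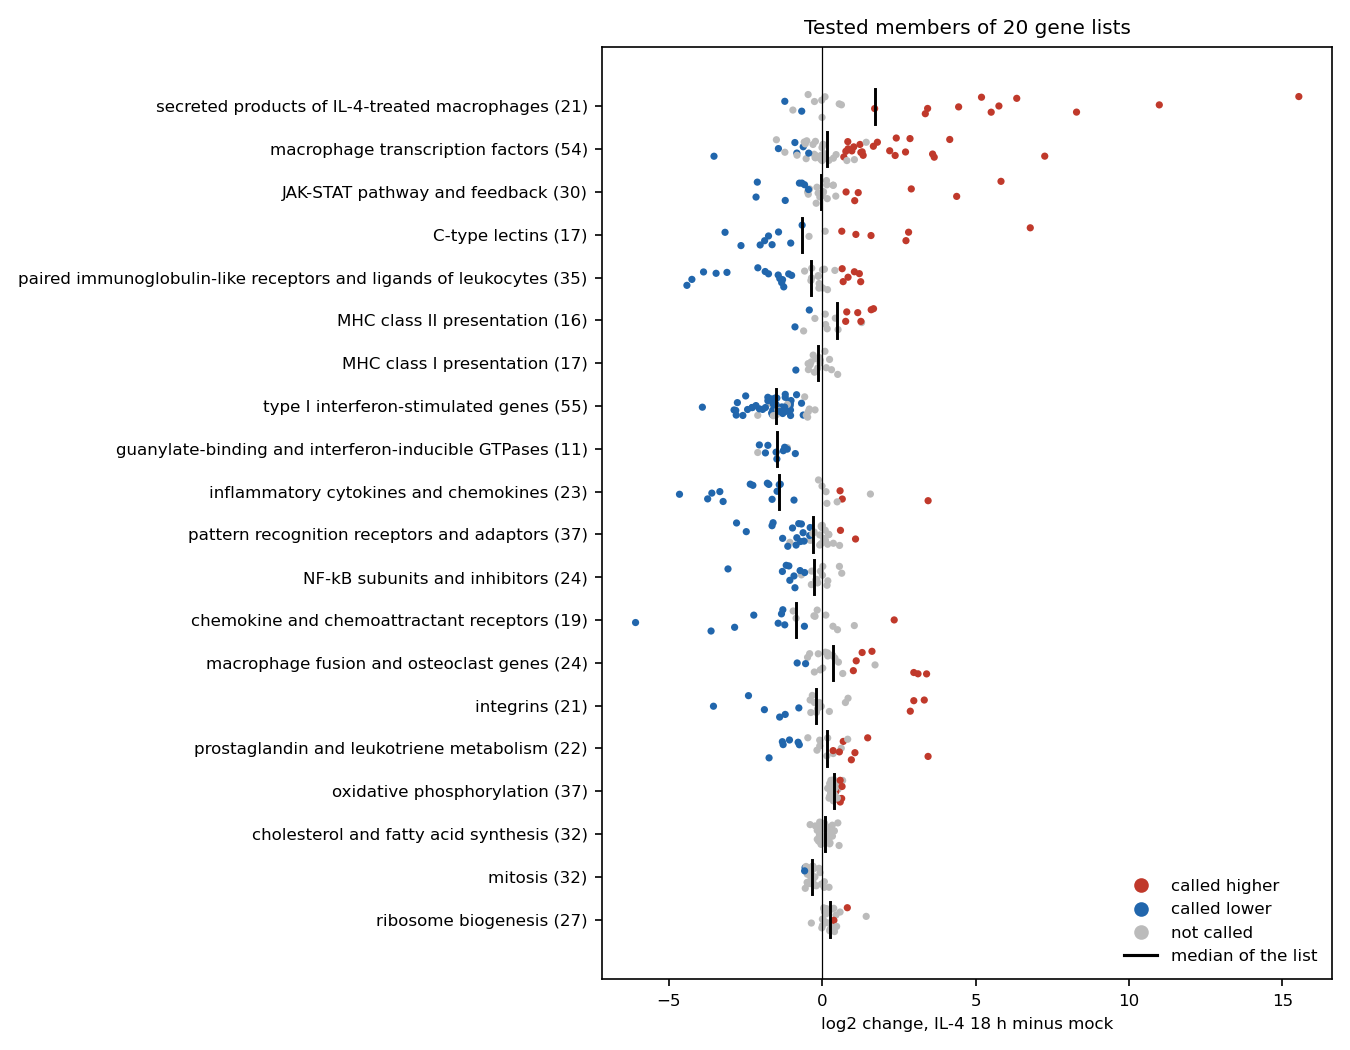
Log2 change (IL-4 18 h minus mock, horizontal axis) of each tested member of 20 gene lists, with the number tested after each name; red points were called higher, blue points lower and grey points not called, and black bars mark the median. The interferon-stimulated list lies wholly below 0, with its median at -1.50, while oxidative phosphorylation lies wholly above 0 in a narrow band.

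Signalling from the IL-4 receptor was measured in its receptor chains, kinases and feedback inhibitors. Of 30 tested JAK-STAT genes, 6 rose and 7 fell (5 and 2 without the block), against 15.8% of all genes called. The 4 largest rises were feedback inhibitors of the SOCS family. Socs1, a JAK inhibitor, had 6.18, 3.40 and 5.32 in IL-4 18 h cells, against 1.07, -0.04 and 0.73 in mock cells, lowest after IL-4 in experiment B (4.38 ± 0.38, adjusted p = 6.39e-06), and beside Cish stood Socs2 (2.90 ± 0.48) and Socs6 (1.17 ± 0.19). Socs3 had -0.20, -0.95 and -0.41 in IL-4 18 h cells, against 0.65, -0.31 and -0.53 in mock cells and was not called (-0.46 ± 0.30, adjusted p = 0.38). Il13ra1, a chain of the type II IL-4 receptor, fell with a change of -2.12 ± 0.20, Stat4 with -2.16 ± 0.30, Stat2 with -1.21 ± 0.23 and Jak3 with -0.75 ± 0.14. Il4ra, the IL-4-binding chain, had 2.47, 2.48 and 2.55 in IL-4 18 h cells, against 3.00, 2.94 and 2.81 in mock cells, slightly lower without overlap and not called (-0.41 ± 0.25, adjusted p = 0.324). Calls that were lost without the block, with the adjusted p of that fit, were those of Jak3 (0.0607) and Stat2 (0.231).

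More transcription factor genes rose than fell. Of 54 tested, 21 rose and 6 fell (15 and 1 without the block), against 15.8% of all genes called in either direction. Egr2, an early growth response zinc-finger factor, had 5.75, 5.34 and 5.81 in IL-4 18 h cells, against 1.79, 1.18 and 1.46 in mock cells, among the tightest large changes (4.16 ± 0.24, adjusted p = 2.22e-07). Bhlhe40 had 2.81, 2.07 and 2.74 in IL-4 18 h cells, against -0.79, -1.51 and -1.03 in mock cells, with groups far apart, while its relative Bhlhe41 fell (-0.83 ± 0.16). Batf3, a BATF-family leucine-zipper factor also used as a dendritic cell marker, had 5.19, 3.03 and 3.38 in IL-4 18 h cells, against 0.38, 0.29 and 0.14 in mock cells (3.60 ± 0.39, adjusted p = 3.74e-05). The other 8 tested conventional dendritic cell markers held 2 genes that fell and 6 not called. Irf4 itself rose on its probe by 2.37 ± 0.30 (adjusted p = 0.000148). Gata3, a T-cell lineage factor, was well above background on 2 IL-4 18 h arrays and no mock array, at least 2.98-fold higher. Pparg, a fatty acid-sensing nuclear receptor, rose by 1.26 ± 0.25 and Ppargc1b, its coactivator, by 1.79 ± 0.27. Maf (-1.43 ± 0.30) and Nr4a1 (-0.89 ± 0.25) fell. Myc had 1.69, -0.06 and 2.91 in IL-4 18 h cells, against 0.31, -1.93 and 1.87 in mock cells, higher after IL-4 in each experiment and not called (1.43 ± 0.56, adjusted p = 0.109). Without the experiment block, the adjusted p was above 0.05 for Nr4a1 (0.0926), Maf (0.183), Gata3 (0.424) and Bhlhe41 (0.74).

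Secreted products known from IL-4-treated macrophages rose in 11 and fell in 2 of 21 tested genes (9 and 0 without the block), with a median of 1.71, against 15.8% of all genes called. This list is built on what is known of this treatment, and its members are no independent support for the direction. Chil3, the chitinase-like protein Ym1, was already measurable in mock cells, with 6.38, 3.08 and 4.94 in IL-4 18 h cells, against 1.90, 1.09 and 1.33 in mock cells, highest in A and lowest in B after IL-4 (3.36 ± 0.45, adjusted p = 0.000204). Ccl24, eotaxin-2, had 3.14, -0.44 and 0.47 in IL-4 18 h cells, against -3.86, -3.53 and -5.01 in mock cells (5.19 ± 0.63, adjusted p = 9.63e-05), and Fn1, fibronectin, had 1.13, -1.02 and 0.00 in IL-4 18 h cells, against -4.05, -6.44 and -5.92 in mock cells (5.51 ± 0.35, adjusted p = 4.1e-07). A second Fn1 probe gave a smaller change, 2.97. The 2 that fell were Il1rn (-1.22 ± 0.28), the interleukin-1 receptor antagonist, and Pf4 (-0.67 ± 0.15), platelet factor 4. The adjusted p without the block was above 0.05 for Chil3 (0.0898), Il1rn (0.226) and Pf4 (0.427).

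Surface lectins divided. Of 17 tested C-type lectins, 6 rose, 9 fell and 2 were not called (5 and 5 called without the block), against 15.8% of all genes. The galactose- and mannose-binding endocytic receptors rose: besides Mgl2, Clec10a (the neighbouring galactose-type lectin, a close paralog) had 7.25, 6.83 and 6.83 in IL-4 18 h cells, against 4.58, 4.10 and 4.04 in mock cells (2.73 ± 0.16, adjusted p = 2.78e-07), and Mrc1, the mannose receptor, had 5.29, 6.04 and 6.24 in IL-4 18 h cells, against 3.54, 4.46 and 4.80 in mock cells (1.59 ± 0.16, adjusted p = 2.33e-05). Clec7a, dectin-1, a beta-glucan receptor, rose by 2.81 ± 0.42. Clec4e, Mincle, which senses mycobacterial glycolipid, had -0.30, 0.65 and 0.85 in IL-4 18 h cells, against 3.63, 3.13 and 3.96 in mock cells, lower in each experiment (-3.17 ± 0.30, adjusted p = 1.12e-05). Cd69 (-2.65 ± 0.33), an activation marker, and Clec1b (-1.88 ± 0.17) fell. Clec9a, well above background on 1 mock array and on no IL-4 18 h array, was at least 1.37-fold lower (adjusted p = 0.0283). In the fit without the block, the adjusted p exceeded 0.05 for Clec1b (0.147) and Clec9a (0.18).

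Paired immunoglobulin-like receptors were mostly lower: of 35 tested, 15 fell and 6 rose (9 and 0 without the block). The PILR genes fell together, with Pilrb1 and Pilra named above and Pilrb2 at -3.46 ± 0.18, though probes of Pilrb1 and Pilrb2 may share signal. Members of the CD300 family parted: Cd300e fell while Cd300ld (1.05 ± 0.23) and Cd300lb (0.84 ± 0.14) rose. Cd200r1 (1.21 ± 0.33), the inhibitory receptor for CD200, and Slamf8 (1.25 ± 0.39) rose as well. Among Fc receptors and complement genes 2 of 27 rose and 8 fell, against 15.8% of all genes called; without the block the 2 were called higher and 0 lower. Fcgr2b, the inhibitory Fc gamma receptor, had 4.89, 5.64 and 5.56 in IL-4 18 h cells, against 2.83, 3.85 and 3.07 in mock cells (2.11 ± 0.15, adjusted p = 7.78e-07), and Fcgr3 rose by 0.90 ± 0.12, whereas the high-affinity receptor Fcgr1 had 3.31, 5.89 and 5.05 in IL-4 18 h cells, against 6.71, 7.15 and 6.95 in mock cells, lowest in A after IL-4 (-2.19 ± 0.43, adjusted p = 0.0033). The complement gene Cfb (-1.63 ± 0.43) was lower. Of 23 tested scavenger and apoptotic-cell receptors 3 rose and 9 fell (0 and 2 without the block), Cd36 (0.64 ± 0.12) and Mfge8 (0.53 ± 0.17) among the first and Cxcl16 (-2.13 ± 0.33), Axl (-1.42 ± 0.14), Marco (-1.42 ± 0.44) and Stab1 (-1.33 ± 0.26) among the second. Calls that were lost without the block, with the adjusted p of that fit, were those of Cd300ld (0.0757), Axl (0.112), Fcgr1 (0.146), Cd200r1 (0.39), Slamf8 (0.413), Marco (0.448), Cd36 (0.456), Mfge8 (0.494), Cd300lb (0.603), Cfb (0.666) and Stab1 (0.779).

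Antigen presentation moved in its class II arm. Of 16 tested MHC class II genes, 6 rose and 2 fell (0 and 0 without the block), with a median of 0.47, against 15.8% of all genes called. Ciita, the class II transactivator, had 1.95, 1.61 and -0.06 in IL-4 18 h cells, against 0.14, 0.34 and -1.98 in mock cells; experiment C was lowest in both groups, and the level was higher after IL-4 in each experiment (1.67 ± 0.23, adjusted p = 0.000265). H2-DMa (1.59 ± 0.16), the invariant chain gene Cd74 (1.26 ± 0.17), H2-DMb2 (1.16 ± 0.18) and H2-Aa (0.80 ± 0.17) rose, and H2-Oa (-0.89 ± 0.18) and Rfx5 (-0.42 ± 0.12) fell. Of 17 class I genes 1 fell, the peptide transporter subunit Tap1 (-0.86 ± 0.21), and 0 rose. Among costimulatory and checkpoint ligands 2 of 18 rose and 4 fell (1 and 3 without the block). Besides Pdcd1lg2 the PD-L1 gene Cd274 had 1.34, 3.94 and 3.61 in IL-4 18 h cells, against 0.86, 2.76 and 1.90 in mock cells, higher in each experiment with overlapping groups (1.13 ± 0.34, adjusted p = 0.0414), and Icosl (-1.89 ± 0.23) and Tnfsf14 (-1.37 ± 0.17) fell. Without the experiment block, the adjusted p was above 0.05 for H2-Oa (0.0513), Rfx5 (0.206), H2-DMa (0.247), Cd74 (0.345), Ciita (0.38), H2-DMb2 (0.38), Cd274 (0.599), Tap1 (0.692) and H2-Aa (0.965).

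Receptors for chemoattractants fell in 9 of 19 tested genes and rose in 1 (5 and 1 without the block), against 15.8% of all genes called. Fpr1 (-2.86 ± 0.31), Cxcr3 (-2.23 ± 0.17) and Ccr2 (-1.22 ± 0.16), the receptor of monocyte chemoattractants, fell, while Ltb4r1, a leukotriene B4 receptor, had 3.02, 1.63 and 3.13 in IL-4 18 h cells, against 0.67, -0.06 and 0.13 in mock cells (2.34 ± 0.28, adjusted p = 7.83e-05). Receptors for nucleotides, lipid mediators and orphan ligands went both ways, 8 of 38 higher and 8 lower (4 and 3 without the block). Ffar4 (3.12 ± 0.38), a long-chain fatty acid receptor, P2ry1 (3.06 ± 0.19), an ADP receptor, Adora2b (1.90 ± 0.23) and Ptger2 (1.61 ± 0.19), which signal through cyclic AMP, rose. P2ry13 (-1.71 ± 0.33) and Gpr34 (-1.48 ± 0.47) fell beside Gpr84. Ptgs1, cyclooxygenase 1, had 4.42, 3.76 and 4.13 in IL-4 18 h cells, against 1.09, 0.51 and 0.36 in mock cells (3.45 ± 0.23, adjusted p = 5.56e-07) in a list of 22 tested prostaglandin and leukotriene genes of which 7 rose and 6 fell (3 and 2 without the block). Tbxas1 (0.95 ± 0.17), thromboxane synthase, rose too, and Alox5 (-1.30 ± 0.31), Hpgds (-1.28 ± 0.22) and Ptges (-1.07 ± 0.17) fell. The adjusted p without the block was above 0.05 for P2ry13 (0.0516), Ffar4 (0.0849), Ccr2 (0.163), Alox5 (0.255), Hpgds (0.309) and Gpr34 (0.691).

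Adhesion genes changed by member. Of 21 tested integrin genes 3 rose and 6 fell (2 and 4 without the block), against 15.8% of all genes called. Itgax, CD11c, had 5.51, 5.21 and 5.20 in IL-4 18 h cells, against 2.33, 2.68 and 2.30 in mock cells, tight in both groups (2.87 ± 0.18, adjusted p = 2.93e-07); Itgb3 (2.98 ± 0.29) and Itgb8 (3.32 ± 0.63) rose, and Itgal (-2.41 ± 0.25), Itga6 (-1.89 ± 0.19) and Itga9 (-1.39 ± 0.14) fell. Cdh1, E-cadherin, known to take part in the fusion of IL-4-treated macrophages, had 0.78, -2.23 and 0.55 in IL-4 18 h cells, against -5.03, -7.20 and -5.05 in mock cells, lowest in B in both groups (5.47 ± 0.36, adjusted p = 5.48e-07). Pecam1 (2.98 ± 0.32) and the desmosome gene Pkp2 (2.17 ± 0.22) rose, while F11r (-2.11 ± 0.16) and Icam1 (-0.82 ± 0.21) fell. Of 24 tested fusion and osteoclast genes 7 rose and 2 fell (3 and 0 without the block): Ocstamp (3.40 ± 0.50), a fusion protein, Atp6v0d2 (3.12 ± 0.23), a proton pump subunit needed for fusion, and Ctsk (1.11 ± 0.28), cathepsin K, rose, and Tnfrsf11a (-0.82 ± 0.23), which encodes RANK, and Nfatc1 (-0.55 ± 0.14) fell. Of 31 matrix and protease genes 5 rose and 9 fell (2 and 6 without the block), with Mmp12 (1.05 ± 0.23), Mmp19 (1.51 ± 0.17) and Timp1 (1.07 ± 0.15) higher beside Fn1, and Mmp14 (-3.26 ± 0.27) and Matn2 (-2.87 ± 0.17) lower. In the fit without the block, the adjusted p exceeded 0.05 for Itgb8 (0.0636), Mmp12 (0.108), Icam1 (0.168), Tnfrsf11a (0.268), Timp1 (0.268), Ctsk (0.385), Itga9 (0.643) and Nfatc1 (0.825).

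Growth factor genes and their receptors rose in 10 and fell in 5 of 37 tested (7 and 1 without the block), against 15.8% of all genes called. Flt1 had 5.79, 5.61 and 5.69 in IL-4 18 h cells, against 0.16, 1.00 and 0.09 in mock cells, bright and tight after IL-4 (adjusted p = 3.65e-08), whereas Kdr, the other main VEGF receptor, had -4.40, -0.15 and -0.25 in IL-4 18 h cells, against -0.42, 1.50 and 1.68 in mock cells, with experiment A far below the others in both groups (-2.52 ± 0.42, adjusted p = 0.00114). Vegfa (-1.36 ± 0.23), Tgfb3 (-1.74 ± 0.26) and Tgfbr1 (-1.59 ± 0.20) fell. Hbegf (3.41 ± 0.55), an EGF receptor ligand, and Fzd1 (1.73 ± 0.42), a Wnt receptor, rose. Calls that were lost without the block, with the adjusted p of that fit, were those of Hbegf (0.0883), Fzd1 (0.115), Tgfb3 (0.203), Kdr (0.493) and Vegfa (0.59).

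Metabolic genes held a few large changes, and small changes of 1 sign in oxidative phosphorylation. The 37 tested subunits of oxidative phosphorylation all had positive changes, between 0.17 and 0.66, and 10 rose, against 7.9% of all genes, with a median of 0.39. The medians within experiments A, B and C were 0.62, 0.36 and 0.24. Without the block 0 of the 37 were called, and between 1 and 3 were called with 1 experiment left out. With normexp the median was -0.08 where that of all genes was 0.13. With trimmed normexp it was 0.36, so the direction turned under plain normexp and not under the trimmed run. Cox7b (0.64 ± 0.10), Cyc1 (0.63 ± 0.14) and Sdhd (0.58 ± 0.15) had the largest called changes. Of 23 tested tricarboxylic acid cycle genes 3 rose and 1, Me1 (-0.68 ± 0.14), fell (1 and 0 without the block). Of 29 glycolysis and pentose phosphate genes 2 rose and 5 fell (0 and 2 without the block), against 7.9% and 7.94% of all genes. Pfkp (0.69 ± 0.17) and Hk3 (0.37 ± 0.11) rose, and Pfkl (-0.78 ± 0.14), Aldoc (-0.76 ± 0.10) and the lactate exporter Slc16a3 (-0.72 ± 0.14) were among those that fell. None of 32 cholesterol and fatty acid synthesis genes was called in either direction, from -0.40 to 0.55. Lipid uptake, storage and oxidation genes rose in 8 and fell in 4 of 38 tested (1 and 2 without the block), against 15.8% of all genes called. Their median of 0.24 turned to -0.06 with normexp and was 0.16 with trimmed normexp. Members called included Fabp4 (1.75 ± 0.36), a fatty acid-binding protein, and Dgat2 (1.16 ± 0.18), both higher, and the cholesterol exporter genes Abca1 (-1.53 ± 0.28), lower, and Abcg1 (0.85 ± 0.23), higher. Without the experiment block, the adjusted p was above 0.05 for Dgat2 (0.0675), Fabp4 (0.0852), Abcg1 (0.166), Pfkp (0.217), Abca1 (0.244), Pfkl (0.299), Cyc1 (0.363), Cox7b (0.587), Sdhd (0.69), Hk3 (0.799) and Me1 (0.88).

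Arginine, polyamine and proline genes rose in 2 and fell in 3 of 21 tested (2 and 1 without the block), against 15.8% of all genes called. Slc7a2, a cationic amino acid transporter, had -0.41, -1.03 and -0.07 in IL-4 18 h cells, against -5.31, -6.14 and -5.59 in mock cells, without overlap (5.17 ± 0.24, adjusted p = 3.65e-08); the other that rose was Arg1, and Slc7a7 (-1.24 ± 0.25), Smox (-0.82 ± 0.16) and Ass1 (-0.64 ± 0.14) fell. Among iron genes Tfrc, the transferrin receptor, had 2.36, 1.36 and 2.16 in IL-4 18 h cells, against -0.15, -1.10 and -0.14 in mock cells (2.42 ± 0.13, adjusted p = 1.7e-07), Hfe rose by 1.27 ± 0.19, and the exporter gene Slc40a1, ferroportin, had -2.40, 0.10 and -1.54 in IL-4 18 h cells, against 0.45, 1.85 and 0.54 in mock cells (-2.23 ± 0.33, adjusted p = 0.000453), with ceruloplasmin, Cp, at -2.64 ± 0.41. Of 21 tested iron and heme genes 5 rose and 4 fell (3 and 2 without the block). Over the whole solute carrier family, 30 of 284 tested rose and 38 fell (6 and 15 without the block), a called share of 23.9 percent against 15.8 percent of all genes. Slc30a4 (2.56 ± 0.19), a zinc transporter, and Slc7a11 (2.12 ± 0.51), the cystine exchanger, rose, and Slc9b2 (-1.97 ± 0.23) and Slc39a4 (-1.88 ± 0.11) fell. The adjusted p without the block was above 0.05 for Slc7a7 (0.0531), Cp (0.0535), Smox (0.135) and Slc7a11 (0.179).

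Few members of the proliferation lists were called. Of 36 tested DNA replication genes 2 rose, of 32 mitosis genes 2 fell, and of 29 cyclins and CDK inhibitors 1 rose and 2 fell, against 15.8% of all genes, and 0 of the 3 lists' members were called without the block. The mitosis genes had negative changes in 29 of 32, with a median of -0.33 where that of all genes was 0.03. Cdkn1c (-1.95 ± 0.28) and Ccnd2 (-2.00 ± 0.60) were the 2 of the cyclin list that fell, and the Ccnd2 value of IL-4 18 h experiment A was left out as an outlier-flagged spot. Of 27 ribosome biogenesis genes 2 rose at 18 h (0 without the block) and 25 had positive changes. Their median was 0.25 (-0.04 with normexp and 0.20 with trimmed normexp), while 14 of the 27 were lower than after 4 h, against 6.51% of all genes. Of 28 unfolded protein response genes 3 rose and 1 fell (1 and 0 without the block), with Pdia4 (1.55 ± 0.23) the largest. Of 37 lysosome genes 3 rose and 2 fell (1 and 0 without the block), with the proton pump subunits Atp6v0a1 (1.55 ± 0.14) and Atp6v1b2 (0.86 ± 0.16) higher. The called shares of these 2 lists, 14.3% and 13.5%, were near the 15.8% of all genes. Among 26 NRF2 and glutathione genes 2 rose and 4 fell (1 and 0 without the block), and among 32 death signalling genes 3 rose and 5 fell (1 and 2 without the block), Casp6 (2.00 ± 0.27) and Bmf (-1.64 ± 0.46) at the ends. Dusp4 (2.77 ± 0.29), a MAP kinase phosphatase, and Ier3 (2.96 ± 0.29), an immediate early gene, were among the larger rises in signalling families. In the fit without the block, the adjusted p exceeded 0.05 for Atp6v1b2 (0.0848), Cdkn1c (0.109), Bmf (0.166) and Ccnd2 (0.808).

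Several smaller symbol families held members that rose and members that fell, where 15.8% of all genes were called. The called share was 19.4% of ADAM and ADAMTS proteases, 21.9% of serine protease inhibitors and 23.5% of tetraspanins. Of 32 tested serine protease inhibitors 4 rose and 3 fell (3 and 1 without the block): Serpina3n (at least 2.41-fold higher, adjusted p = 9.81e-05), Serpina3g (2.22 ± 0.37), Serpina3f (1.86 ± 0.40) and Serpinb12 (1.90 ± 0.27) rose. The Serpina3 genes are close paralogs, and their probes may share signal. Of 21 tested semaphorins and plexins, ligands and receptors of guidance signals, 5 rose and 4 fell (2 and 1 without the block), with Plxna3 (1.23 ± 0.19) higher and Plxna2 (-1.54 ± 0.16) and Sema4d (-1.46 ± 0.13) lower. Of 46 Arhgap and Arhgef genes, GTPase activators and exchange factors, 6 rose and 10 fell (2 and 2 without the block), Arhgap6 (1.57 ± 0.16) and Arhgap24 (-2.21 ± 0.19) at the ends. Of 13 regulators of G protein signalling 1 rose, Rgs16 (1.55 ± 0.44), and 3 fell (0 and 0 without the block). Potassium channel genes had 3 of 41 higher and 3 lower (1 and 0 without the block), from Kcnj16 (1.75 ± 0.34) to Kcnk12 (-1.89 ± 0.17), near the share of all genes. Of 31 ADAM and ADAMTS proteases 4 rose and 2 fell (0 and 0 without the block), Adam33 (-1.30 ± 0.32) the lowest, and of 17 tetraspanins 2 rose and 2 fell (0 and 2 without the block), Tspan7 (1.21 ± 0.18) and Tspan13 (-1.48 ± 0.27) at the ends. Of 20 immediate early and heat shock genes 6 rose and 0 fell (4 and 0 without the block), Egr1 (1.67 ± 0.41) and the chaperone gene Hsph1 (1.31 ± 0.15) among them. Calls that were lost without the block, with the adjusted p of that fit, were those of Kcnk12 (0.0989), Arhgap6 (0.113), Rgs16 (0.303), Serpinb12 (0.397), Tspan7 (0.413), Plxna2 (0.497), Egr1 (0.651) and Adam33 (0.98).

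Markers of macrophages and of other cells moved in part. Monocyte markers had 2 of 9 higher, Fn1 and Chil3, and 3 lower (1 and 1 without the block), against 15.8% of all genes called, the lower ones being Ly6c1 (-2.15 ± 0.34), Plac8 (-2.13 ± 0.48) and Ccr2. Of the 14 macrophage identity genes 5 fell and 1 rose (1 and 1 without the block), those that fell including Cd14 and Fcgr1 as above, Aif1 (-1.20 ± 0.19) and Mertk (-1.16 ± 0.16). Csf1r (-0.25 ± 0.13), the receptor of the growth factor in the medium, was not called. Of 12 neutrophil markers 1 rose, Csf3r (1.19 ± 0.18); of 9 B-lineage markers 1 fell, Ighm (-1.28 ± 0.20). Conventional dendritic cell markers had 1 of 9 higher, Batf3, and 2 lower, T and NK cell markers 1 of 9 higher and 1 lower, plasmacytoid dendritic cell markers 1 of 8 higher, erythroid and platelet markers 2 of 9 lower, and fibroblast and endothelial markers 2 of 11 lower, Kdr among them. The part of any of these cells in the results was not tested. Without the experiment block, the adjusted p was above 0.05 for Csf3r (0.118), Aif1 (0.25), Ly6c1 (0.437), Mertk (0.819) and Ighm (0.905).

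**Figure D4:**
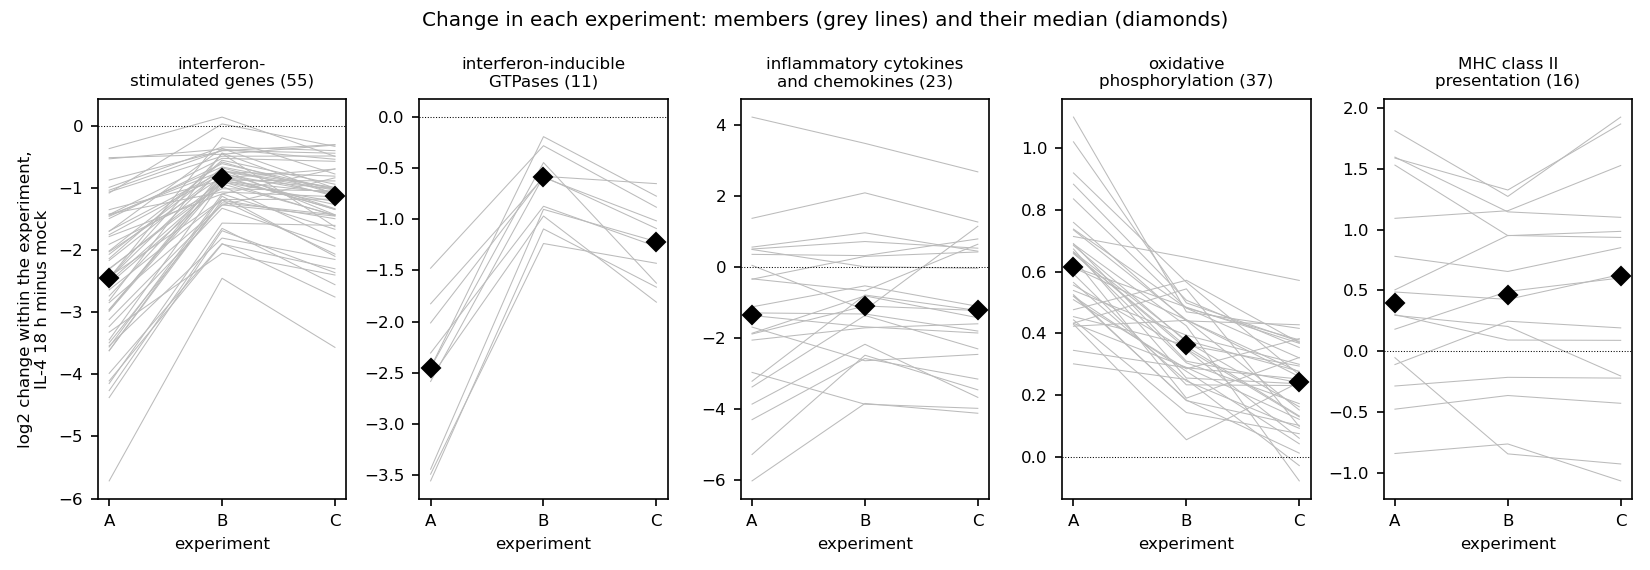
Log2 change within each experiment (A, B and C, horizontal axis; IL-4 18 h minus mock, vertical axis) of the members of 5 lists, each with its own vertical scale; grey lines join the values of 1 gene and diamonds mark the median. The interferon-stimulated list has medians of -2.45, -0.84 and -1.13, and oxidative phosphorylation 0.62, 0.36 and 0.24.

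Against the 4 h state of the same genotype, 1766 genes differed at 18 h (11.8% of those tested): 793 were higher at 18 h and 973 lower. The 4 h cells were cultured with IL-4 for 4 h, while mock cells were cultured for 18 h, so time in culture differs in this comparison. Without the block 83 were higher and 98 lower (6.51% of all genes were lower with it and 5.31% higher). With normexp 71 were higher and 275 lower, with trimmed normexp 589 and 863, and with scaling to the median 419 and 940. The 6 that were the most above their 4 h level were Ear10 (4.46 ± 0.61), Ear3 (4.34 ± 0.62), Ear6 (4.25 ± 0.65), Rnase2a (4.22 ± 0.76), Rbp4 (4.21 ± 0.54) and Ear1 (4.12 ± 0.53). Retnla, already at 4.17, 3.04 and 2.24 after 4 h, was higher at 18 h in each experiment (3.99 ± 0.38, adjusted p = 5.55e-05). Fn1 had -3.60, -4.69 and -3.66 at 4 h and was far higher at 18 h (4.02 ± 0.35). Itgax (2.29 ± 0.18), Mgl2 (2.49 ± 0.23) and Bhlhe40 (1.75 ± 0.14) were also above their 4 h level. For others no difference from 4 h was called. Egr2 differed by -0.12 ± 0.24 and Cdh1 by -1.03 ± 0.36 (adjusted p = 0.825 and 0.0858). Of the differences from 4 h called here, those of Rbp4 (0.0687), Ear1 (0.0969), Ear6 (0.122), Ear3 (0.138), Ear10 (0.148) and Rnase2a (0.404) were lost without the block, with the adjusted p of that fit in parentheses.

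Genes far below their 4 h level differed in where they stood against mock. Gata3 had -3.47, -7.10 and -4.95 at 18 h against 0.87, -1.71 and -0.99 at 4 h (-4.56 ± 0.58, adjusted p = 0.00044), and Serpina3f had -2.91, -3.10 and -2.53 against 1.19, 0.34 and 0.68 (-3.58 ± 0.40). Both were called higher than mock at 18 h, Gata3 with overlapping groups. Kalrn, a guanine nucleotide exchange factor, was at -5.30, -6.29 and -6.20 in mock cells, -1.11, -2.21 and -2.27 at 4 h and -5.68, -6.35 and -5.69 at 18 h. It was lower than at 4 h (-4.05 ± 0.34) and not called against mock (0.02 ± 0.34, adjusted p = 0.98). Its change against mock was 1.81 with normexp and 0.13 with trimmed normexp. Wdr86 (-3.60 ± 0.53) and Asb2 (-3.44 ± 0.28), a ubiquitin ligase adaptor, completed the largest with Ppm1n (-3.33 ± 0.34), which was also below mock. Asb2 had -1.45, -1.49 and -1.89 in mock cells, -1.88, -1.26 and -1.66 at 4 h and -5.30, -4.35 and -5.49 at 18 h, lower than both at 18 h. Il4ra was higher at 4 h, 3.85, 4.16 and 4.77, than at 18 h (-1.76 ± 0.25, adjusted p = 0.000804), and Socs1 differed by -1.55 ± 0.38 (adjusted p = 0.0192). Without the block the adjusted p exceeded 0.05 for Gata3 (0.152) and Socs1 (0.449).

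**Figure D5:**
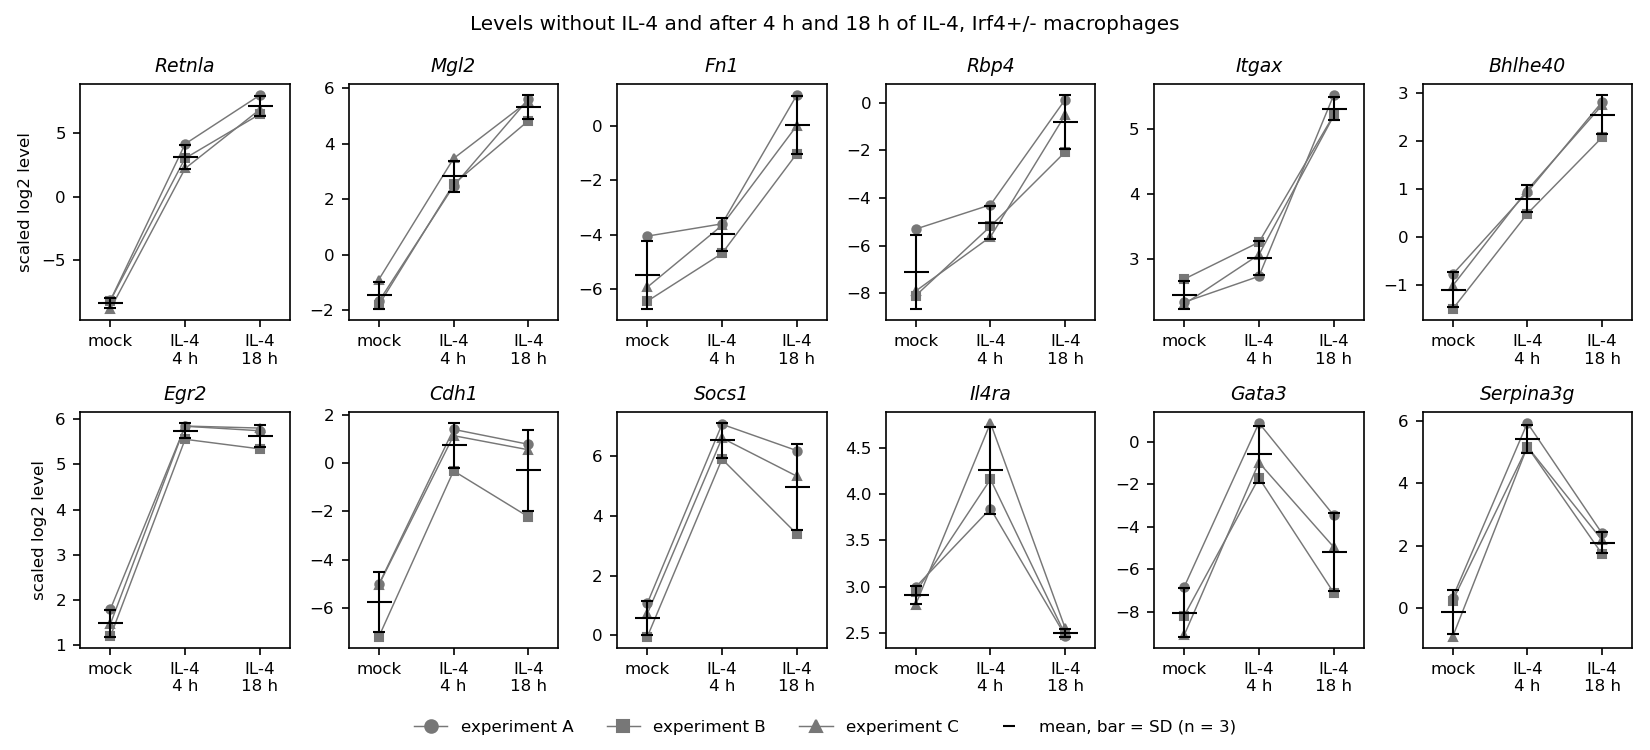
Scaled log2 level (vertical axis) of 12 genes of Irf4+/- cells without IL-4 (mock, 18 h of culture), after 4 h and after 18 h with it; symbols and grey lines are the 3 experiments, and bars give the mean and SD (n = 3). Retnla and Fn1 are highest at 18 h, Egr2 is alike at 4 h and 18 h to the eye, and Gata3, Serpina3g and Il4ra are highest at 4 h.

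The 18 h response of Irf4+/- cells was set against that of Irf4-/- cells in a test of the difference of the 2 responses. No gene was called (0% of 14941 by limma, lowest adjusted p 0.44). An unadjusted p under 0.05 was reached by 643 genes, less than a share of 0.05 of those tested. With pool as a random block 2 genes were called. For Tfrc the difference was 0.95 ± 0.19, for Sema6d, a semaphorin, 1.77 ± 0.31, and for Cd300e -1.77 ± 0.33. These 3 were among the 6 with the smallest unadjusted p and did not pass. A p that misses the threshold does not show that the responses are alike. The Irf4+/- response of Sema6d itself was 2.27 ± 0.22 (adjusted p = 1.43e-05).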

How the data were processed

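Total RNA of 18 samples was labelled with Cy3 and hybridised to 1-colour Agilent arrays, 3 for each of 6 groups of genotype and IL-4 time. The processed intensity of each spot was deposited by the authors as Feature Extraction output (version 9.5.1, per the submitters' processing notes), with background subtracted and detrended, per the file headers. The authors' deposited table of log2 values holds differences from the Irf4+/- mock array of the same experiment: its other columns correlated at 0.997 or more with the same differences of the scanner values. It was used as an alternative.

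Control spots and spots with an outlier flag were left out, so that a gene such as Ccnd2 can lack 1 value in the fit. Log2 processed intensity was scaled to each array's 75th percentile, spots of 1 probe were averaged, and a probe was kept where some group had it well above background in all 3 experiments. The brightest kept probe stood for its gene. Of the called genes 1050 had other kept probes, and 67 of these had another probe of the opposite sign. A gene that no array of a group measured well above background is given as at least N-fold. The bound is against the lowest signal well above background or the gene's own, whichever was higher. It holds for the background correction of the main fit and can be smaller under another. The fitted change of such a gene enters the counts, ranks and plots. The number of arrays limits the precision. Group means and the experiment letter were fitted on all 18 arrays with limma 3.58.1 in R 4.3.3 (lmFit and eBayes). Benjamini-Hochberg adjustment ran over all 14941 genes. The fit was also run on simulated data with independent errors on each array, which says nothing of errors shared by a slide or pool. The labels give the letters as independent experiments on littermates, and same-letter arrays deviated together (correlations of 0.83, 0.76 and 0.73 between IL-4 18 h and mock deviations). Correlations between letters were below 0, which deviations that sum to 0 within a group force on balance. In A and in B the same-letter arrays also shared a slide. Both arms of a letter come from pooled cells. With the letter as a block, p-values measure the spread left over all 18 arrays after group and letter means, not that between single animals.

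The text names the 15 largest changes per direction with the same sign in all experiments, a set of known IL-4 and inflammatory genes, up to 4 called genes per direction of each of 50 lists and 11 symbol families, the 6 largest differences per direction from 4 h, and the 5 smallest p-values. Some genes that this rule takes are not reported here. The arrays, lists and genes were chosen with earlier results of these data known. Alternatives were no block, fewer arrays, other background corrections, scalings, probe filters and probe rules, slide or pool as blocks, array weights, the deposited table and each array left out; slide and pool as fixed blocks and each experiment left out were added after seeing the data.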

Additional observations from a re-analysis of the deposited data

How the results depend on the processing

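The counts depended on the pairing. With no replicate block 642 genes differed between IL-4 18 h and mock cells, against 2367 with it, and 181 between 18 h and 4 h, against 1766; the lost calls of named genes are given in each paragraph. With the block and the 9 Irf4+/- arrays alone the counts were 3618 and 3005, with pool as a random block 3989 and 3515, and with pool as a fixed block, chosen after seeing the data, 4118 and 3478. Slide as a random block gave 2874 genes for 18 h against 4 h. Normexp gave 805 and 346, and trimmed normexp 2088 and 1452. Leaving out 1 array gave 1643 to 2113 genes against mock and 1084 to 1698 against 4 h, where the lowest 3, 1159, 1164 and 1084, lacked the 18 h array of A, B or C. Leaving out an experiment, also added after seeing the data, gave 1035 to 1423 and 412 to 776. The deposited table gave 965 higher and 1032 lower genes against mock. The genotype difference gave 0 genes under the alternatives run, except 2 with pool as a random block.

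Over the named genes, 5869 of the alternative values kept direction and side of the threshold, 616 fell short of it, 25 newly passed it and 36 turned sign. With normexp these changes were positive: Bhlhe41 (0.707), Clec9a (1.78), Col15a1 (1.34), Col19a1 (1.53), Cp (0.034), Cxcl1 (0.375), Cxcl11 (1.03), Cxcl9 (1.04), Dscam (0.013), Fpr1 (0.128), Gbp4 (0.348), Gpr82 (1.73), H2-Oa (0.51), Ifnb1 (1.5), Il1b (0.984), Krt80 (1.37), Lipg (1.19), Me1 (0.0193), Ptges (0.653), Rfx5 (0.871), Siglece (1.65), Tal2 (0.068), Tgfb3 (0.147), Tlr5 (0.322) and Txk (1.19). These were negative: Hk3 (-0.0801), Mfge8 (-0.0201) and Tlr4 (-0.248). Against 4 h, normexp gave Ppm1n (0.572). Kalrn, near 0 against mock, gave 1.81 with normexp, 0.134 with trimmed normexp and -0.0587 with quantile normalization. It gave -0.0736 with slide as a random and -0.256 as a fixed block, and -0.221 to 0.225 with an array or experiment left out. Of the 265 named values 29 turned sign with normexp. With trimmed normexp 245 kept direction and side of the threshold, and the other 20 kept direction but fell short of it. The cause was not tested. Dim probes limit the sizes given: a gene near background on 1 side has a fold that depends on the background correction, and levels of different probes cannot be compared. Each group had 3 arrays of pooled cells, and 1 contrast array of C lay on another slide. With slide as a fixed block 1333 genes rose and 1342 fell.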
